A study of Mus musculus with 8 samples.

Results

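The genes of the metalloproteinases that cut matrix and cell-surface proteins, and of their inhibitors, were followed in mouse cortex beside a surgical cavity. They were chosen by gene symbol alone, as the numbered Mmp, Adam, Adamts and Adamtsl genes and Timp1 to Timp4. The rule found 58 of the 17644 gene symbols in the table: 16 Mmp, 16 Adam, 17 Adamts, 5 Adamtsl and 4 Timp genes. The rule itself uses no measured value.

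Transcripts were measured by CAGE, in which each sequencing tag marks the capped 5′ end of an RNA. The tissue lay within 1.0 mm of a cavity aspirated from the motor cortex, and the mice were C57BL/6NCrSlc males 11 weeks old at the lesion. In 4 samples the brain was removed 1 week after the lesion, and in the other 4 (no delay) it was removed immediately after it. Both groups carry the lesion, and no unlesioned tissue was analysed here. The question put to these genes is how their levels at 1 week differed from those in a fresh wound. Values are CPM, tag counts scaled to the library total, from libraries of 8278855 to 13998941 reads, so that 3 reads, the upper limit that a count of 0 allows, correspond to 0.214 to 0.362 CPM. A capped RNA gives a tag from its 5′ end whatever its length, so levels are set side by side between genes in CPM without a length term. The libraries of each group are called A, B, C and D here, in the alphabetical order of their index tags, which are the same 4 in both groups, and per-library values follow that order. Nothing in the labels says that a shared tag pairs libraries or ties a library to one animal, so p-values measure the spread between these libraries. Since this is bulk tissue, fewer cells of a type and less RNA per cell cannot be told apart.

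Matrix metalloproteinases (MMPs) are zinc-dependent enzymes made as inactive precursors. Some are secreted and others are held on the cell surface, and together they cut collagens, basement membrane and many signalling proteins. ADAMs are membrane proteins, and those with an active protease domain release the outer parts of cytokines, growth factors and receptors from cells. ADAMTS enzymes are secreted and include the proteoglycanases that cut the lecticans of the brain matrix, and ADAMTS-like proteins share their accessory domains without a protease domain. Tissue inhibitors of metalloproteinases (TIMPs) block the active site of these enzymes. In injured brain the enzymes are known for opening of the blood-brain barrier, clearance of matrix and remodelling of the glial scar.

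Promoter sequences are shown for Mmp12, Mmp3 and Mmp13, neighbours in a cluster of secreted MMP genes on mouse chromosome 9 that stood at different levels in these libraries, and for Adamts1, a proteoglycanase gene called higher. The tags counted here mark starts in such regions. RefSeq promoter windows of the build GRCm38.p6, from 250 bases before to 50 after an annotated start, were matched by symbol for 37 of the 58 genes (41 windows). The AP-1 motif TGANTCA, which reads the same on both strands, was found in the windows of 4 genes, Mmp3, Mmp12, Mmp13 and Adam19, and in 7.81% of all 32851 windows. The motif TATAAA on either strand, which does not overlap the AP-1 motif in the sequences printed here, was found in the windows of 6 genes, Mmp3, Mmp8, Mmp12, Mmp13, Adamts1 and Adamtsl2, and in 13.6% of all windows. Sequences are written 5′ to 3′ with both motifs in capitals. The window of Mmp12 shown is chr9:7347124-7347423 (plus strand), that of Mmp3 chr9:7445572-7445871 (plus strand), that of Mmp13 chr9:7272264-7272563 (plus strand) and that of Adamts1 chr16:85803064-85803363 (minus strand). The motif matches are descriptions of these letters and not sites shown to be bound, and a second window of Mmp12 held neither motif.
Mmp12: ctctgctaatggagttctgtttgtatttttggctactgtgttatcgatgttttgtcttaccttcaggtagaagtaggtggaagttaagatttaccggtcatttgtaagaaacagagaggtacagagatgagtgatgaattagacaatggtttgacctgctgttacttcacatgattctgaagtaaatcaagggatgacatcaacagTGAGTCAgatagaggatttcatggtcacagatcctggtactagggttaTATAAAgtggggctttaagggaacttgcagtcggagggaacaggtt
Mmp3: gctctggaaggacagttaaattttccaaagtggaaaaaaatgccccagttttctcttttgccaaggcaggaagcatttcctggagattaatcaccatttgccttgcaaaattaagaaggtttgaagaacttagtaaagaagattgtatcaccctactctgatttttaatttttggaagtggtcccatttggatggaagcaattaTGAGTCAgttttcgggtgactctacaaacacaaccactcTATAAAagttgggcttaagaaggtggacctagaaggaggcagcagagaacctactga
Mmp13: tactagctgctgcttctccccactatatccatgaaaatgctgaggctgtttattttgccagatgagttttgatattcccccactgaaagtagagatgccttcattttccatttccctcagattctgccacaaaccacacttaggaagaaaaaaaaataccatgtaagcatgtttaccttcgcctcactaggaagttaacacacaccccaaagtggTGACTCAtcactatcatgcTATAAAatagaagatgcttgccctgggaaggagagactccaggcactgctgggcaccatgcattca
Adamts1: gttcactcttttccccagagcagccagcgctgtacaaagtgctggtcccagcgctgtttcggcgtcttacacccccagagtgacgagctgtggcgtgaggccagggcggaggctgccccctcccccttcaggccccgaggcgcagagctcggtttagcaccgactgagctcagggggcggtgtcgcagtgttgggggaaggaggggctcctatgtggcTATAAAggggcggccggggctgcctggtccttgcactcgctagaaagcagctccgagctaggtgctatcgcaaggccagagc
In the windows shown, the AP-1 motif began 44 bases before the annotated start of Mmp12, 46 before that of Mmp3 and 35 before that of Mmp13. The TATAAA motif began 7 bases before the start of Mmp3, 16 before that of Mmp13 and 32 before that of Adamts1. In Mmp12 it began at base 5 after the start.

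All 4 inhibitor genes and some of the matrix-cutting enzyme genes, among them Mmp2, Mmp12, Mmp14, Adamts1 and Adamts4, were called higher at 1 week. Mmp17, Adam23 and Adamts20 were called lower, and the larger part of the genes was not called or too low to test. Of the 58 genes, 44 reached 1 CPM in at least 4 libraries and were tested, and 14 were not. Of those tested, 18 were higher at 1 week (40.9%, against 23.4% of all 14718 genes tested), 3 were lower (6.82%, against 13.4% of all genes) and 23 were not called (limma, Benjamini-Hochberg adjusted p under 0.05 over all genes). In 17 of the 44 the lowest 1-week library was above the highest no-delay library (22.7% of all genes tested), and in 4 the highest 1-week library was below the lowest no-delay library (12.0% of all genes). The median log2 fold change of the 44 (1 week over no delay, on the log2(CPM + 1) scale used throughout) was 0.25, against 0.06 over all genes tested. Among those called higher, Timp1, Mmp11, Mmp12, Mmp19 and Adamtsl3 were under 1 CPM in all no-delay libraries and so entered the test only through their 1-week levels. Without them 13 of 39 were higher, with a median log2 fold change of 0.20. All of them also stood among the 17 genes with every 1-week library higher, so nothing is read from that count.

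Scaling changed the split between directions. Among called genes of these families, 85.7% were higher on the deposited scale, 73.9% under TMM and 66.7% under quantile normalization. Among all called genes the shares were 63.6%, 52.4% and 44.2%, so the share fell there too. The quantile step shifted the median over all genes by -0.101 (log2). Under TMM, Adam19, Adam22 and Mmp24 were also called lower.

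**Figure D1:**
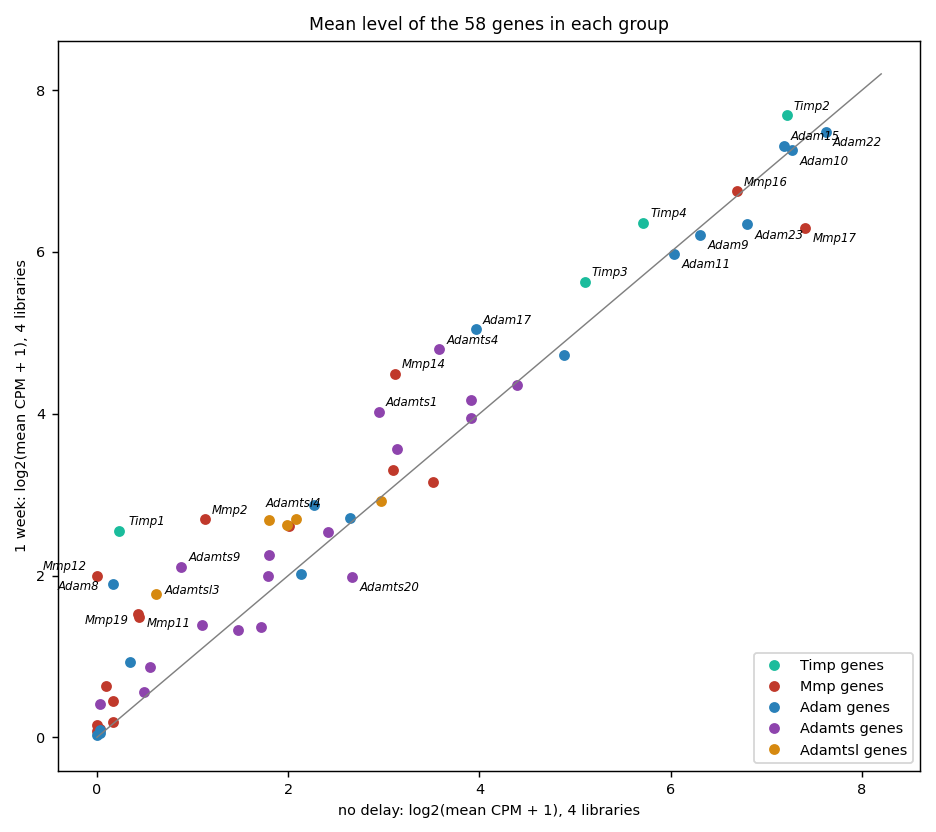
Mean level of each of the 58 genes, as log2(mean CPM + 1), at 1 week (vertical axis) and with no delay (horizontal axis), 4 libraries each, coloured by family; the grey line marks equal levels. Timp1, Mmp12, Mmp2 and Mmp14 lie above the line and Mmp17 below it, while abundant genes such as Adam10 and Mmp16 lie near it.

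**Figure D2:**
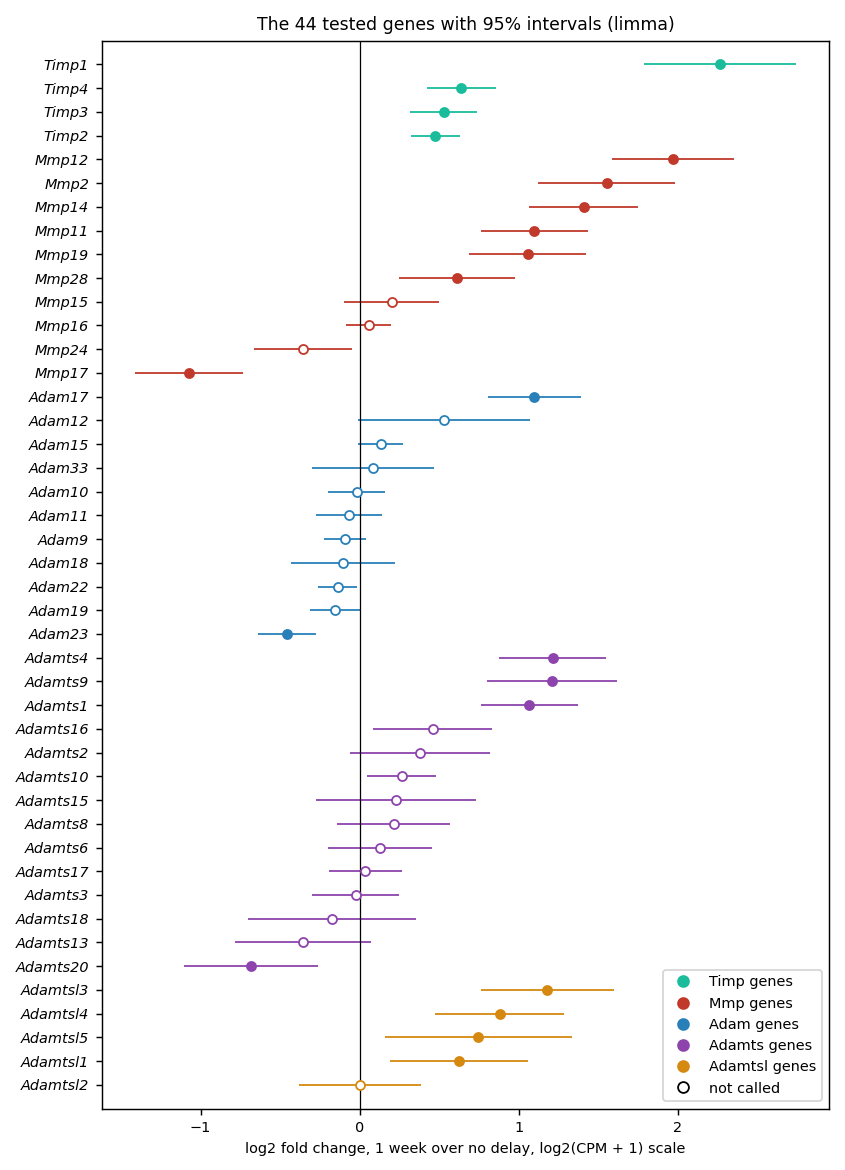
Log2 fold change of 1 week over no delay on the log2(CPM + 1) scale for the 44 tested genes, with limma 95% intervals; filled points were called at adjusted p under 0.05. All 4 Timp genes lie above 0, and Mmp17 at -1.07 is the lowest.

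All 4 inhibitors were called higher (against 23.4% of all genes tested), and the rarest of them, Timp1, had the largest log2 fold change. Timp1 was under 1 CPM in all no-delay libraries and was tested only through its 1-week level, so nothing is read from this count. Timp1, the inducible inhibitor of secreted MMPs, had 2.54, 6.80, 5.64 and 4.48 CPM in the 1-week libraries, against 0.31, 0.09, 0.20 and 0.10 CPM in the no-delay libraries. These rest on 247 reads at 1 week and 7 with no delay. Scaled to depth, the 1-week level was 29.6 times the no-delay level (95% interval 14.2 to 74.5, covering counting error only). The groups were far apart in every library (2.26 ± 0.22 SE on the log2 scale, limma adjusted p = 7.4e-06), although the 1-week libraries differed among themselves, with A lowest and B highest. Timp2, which both inhibits MMP2 and helps MMP14 to activate it, was the most abundant inhibitor. It had 184, 227, 209 and 202 CPM at 1 week, against 141, 156, 145 and 148 CPM with no delay (0.47 ± 0.07 SE on the log2 scale, limma adjusted p = 2.5e-04). Timp3, which is bound to matrix and also inhibits ADAM17 and aggrecan-cutting ADAMTS enzymes, had 50.2, 46.3, 41.4 and 56.7 CPM at 1 week, against 35.04, 31.9, 35.6 and 30.5 CPM with no delay (0.53 ± 0.10 SE on the log2 scale, limma adjusted p = 0.00114). Timp4 had 80.7, 66.4, 79.1 and 99.03 CPM at 1 week, against 51.3, 52.9, 48.9 and 52.3 CPM with no delay (0.64 ± 0.10 SE on the log2 scale, limma adjusted p = 3.5e-04). None of the 4 overlapped between groups, where 22.7% of all genes tested lay fully higher at 1 week. The calls held in every alternative in which the genes were tested.

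Despite its rise, Timp1 stayed a small part of the inhibitor transcripts. It made up 1.42% ± 0.510 of the summed Timp CPM at 1 week and 0.0760% ± 0.0459 with no delay (SD, n = 4 each). Timp2 made up 60.4% ± 4.38 at 1 week and 63.4% ± 1.22 with no delay, and Timp3 and Timp4 together held nearly all of the rest. The summed Timp level was 340.2 ± 19.2 CPM at 1 week and 232 ± 5.80 CPM with no delay (SD, n = 4 each). By a reference annotation (GENCODE M21), Timp1 lies inside the synapsin gene Syn1, Timp3 inside Syn3 and Timp4 inside Syn2, each on the opposite strand, and the sources used here do not say whether tags were assigned by strand. These neuronal host genes were lower or were not called. Syn1 averaged 350.3 ± 20.7 CPM at 1 week and 413 ± 35.5 CPM with no delay (SD, n = 4 each; -0.23 ± 0.07 SE on the log2 scale, limma adjusted p = 0.0262). Syn2 averaged 177 ± 13.0 CPM at 1 week and 213 ± 12.0 CPM with no delay (SD, n = 4 each; -0.26 ± 0.07 SE on the log2 scale, limma adjusted p = 0.0110). Syn3 averaged 21.9 ± 1.82 CPM at 1 week and 25.3 ± 2.72 CPM with no delay (SD, n = 4 each; limma adjusted p = 0.139). The same limit holds for Adam17 and Mmp11, which overlap or start beside Iah1 and Chchd10 on the other strand. Those neighbours had log2 fold changes of 0.32 and 0.00 (limma adjusted p = 0.0720 and 0.989).

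Of the secreted MMPs, the 5 that were tested (Mmp2, Mmp11, Mmp12, Mmp19 and Mmp28) were called higher, and none exceeded 7.54 CPM in any library. Mmp11, Mmp12 and Mmp19 were tested only because they were high at 1 week, so that nothing is read from this count. Mmp12, macrophage elastase, had 2.05, 4.14, 3.0 and 2.77 CPM in the 1-week libraries (149 reads), against no read in any no-delay library. That is at least 41.7-fold higher when set against 3 reads over the 4 no-delay libraries (limma adjusted p = 3.7e-06). Its neighbours with the same AP-1 motif in the promoters shown above stayed near the limit of detection. Mmp3, stromelysin 1, had 0, 0.15, 0.21 and 0.08 CPM at 1 week (6 reads) and none with no delay, and Mmp13, collagenase 3, had 0, 0, 0.14 and 0.16 CPM at 1 week, against 0.10, 0, 0 and 0 CPM with no delay. Mmp27 of the same cluster was at or below 0.14 CPM in the 1-week libraries and at 0 in the no-delay libraries. Mmp8, neutrophil collagenase, had 0.12, 0.30, 0 and 0.16 CPM at 1 week, against 0, 0.09, 0.30 and 0.10 CPM with no delay, and the groups overlapped. The 3 neutrophil markers in the table (S100a8, S100a9 and Retnlg) summed to 1.18 to 5.07 CPM at 1 week and 0.61 to 12.4 CPM with no delay.

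Mmp2, gelatinase A, which cuts denatured collagen and basement membrane collagen, had 5.07, 7.54, 5.79 and 3.58 CPM at 1 week, against 1.33, 0.91, 1.68 and 0.83 CPM with no delay (1.55 ± 0.20 SE on the log2 scale, limma adjusted p = 7.2e-05). Its lowest 1-week library lay above the highest no-delay library. Mmp11, stromelysin 3, averaged 1.87 ± 0.237 CPM at 1 week and 0.343 ± 0.145 CPM with no delay (SD, n = 4 each; 1.10 ± 0.15 SE on the log2 scale, limma adjusted p = 1.5e-04). Mmp19 averaged 1.80 ± 0.235 CPM at 1 week and 0.357 ± 0.225 CPM with no delay (SD, n = 4 each; 1.06 ± 0.17 SE on the log2 scale, limma adjusted p = 3.9e-04). Both are rare transcripts whose groups did not overlap, and edgeR on recovered reads, without a pseudocount of 1 CPM, gave log2 fold changes of 2.33 for Mmp11 and 2.28 for Mmp19. For Timp1, Adamtsl3 and Adamts9 it gave 4.70, 2.14 and 1.92. Mmp28, epilysin, averaged 5.09 ± 0.764 CPM at 1 week and 3.03 ± 0.791 CPM with no delay (SD, n = 4 each; 0.61 ± 0.17 SE on the log2 scale, limma adjusted p = 0.0127), and its call was lost with quantile normalization (limma adjusted p = 0.303). Mmp23 was below 1 CPM in every library and was not tested, with 27 reads at 1 week and 3 with no delay.

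Of the 6 membrane-type MMP genes, Mmp14 was called higher, Mmp17 was called lower, 3 were not called and 1 was not tested. Among all genes tested, 23.4% were higher and 13.4% lower. Mmp14, also called MT1-MMP, cuts fibrillar collagen at the cell surface and activates pro-MMP2. It had 21.7, 22.5, 18.3 and 23.7 CPM at 1 week, against 5.74, 7.96, 10.6 and 6.36 CPM with no delay (1.41 ± 0.16 SE on the log2 scale, limma adjusted p = 2.4e-05). All 1-week libraries were high, and the no-delay library C was the highest of its group. Mmp14, its substrate Mmp2 and Timp2, which joins the activating complex, were all called higher.

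Mmp17, or MT4-MMP, which is held to the membrane by a glycolipid anchor, was the most abundant MMP of the fresh wound and fell at 1 week. It had 70.5, 73.4, 80.4 and 86.2 CPM at 1 week, against 137, 238, 172 and 128 CPM with no delay (-1.07 ± 0.16 SE on the log2 scale, limma adjusted p = 2.0e-04). The groups did not overlap, but the no-delay libraries ranged widely, with B at the top. Without that library the log2 fold change was -0.89 (limma adjusted p = 9.0e-05). The same library held 106 CPM of choroid plexus markers, nearly all of it Ttr, against 0.20 to 1.78 CPM in the other no-delay libraries and 0.21 to 0.65 CPM at 1 week, and the part of choroid plexus tissue in the Mmp17 level was not tested. The row AC114657.1 had the same reads as Mmp17 in every library, so the tags cannot be told apart between them.

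The other membrane-type MMPs were not called. Mmp16 (MT3-MMP), abundant in brain, averaged 106 ± 7.72 CPM at 1 week and 102 ± 0.584 CPM with no delay (SD, n = 4 each), with a 95% interval of the log2 fold change of -0.08 to 0.20 (limma adjusted p = 0.525). Mmp15 averaged 8.91 ± 1.77 CPM at 1 week and 7.56 ± 0.780 CPM with no delay (SD, n = 4 each; limma adjusted p = 0.278). Mmp24 (MT5-MMP), known from neurons, averaged 7.92 ± 1.20 CPM at 1 week and 10.4 ± 1.83 CPM with no delay (SD, n = 4 each), with overlapping groups and a limma adjusted p of 0.0683, and was called lower in 7 of 17 alternatives. Mmp25, the leukocyte membrane-type MMP, was under 1 CPM in every library.

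**Figure D3:**
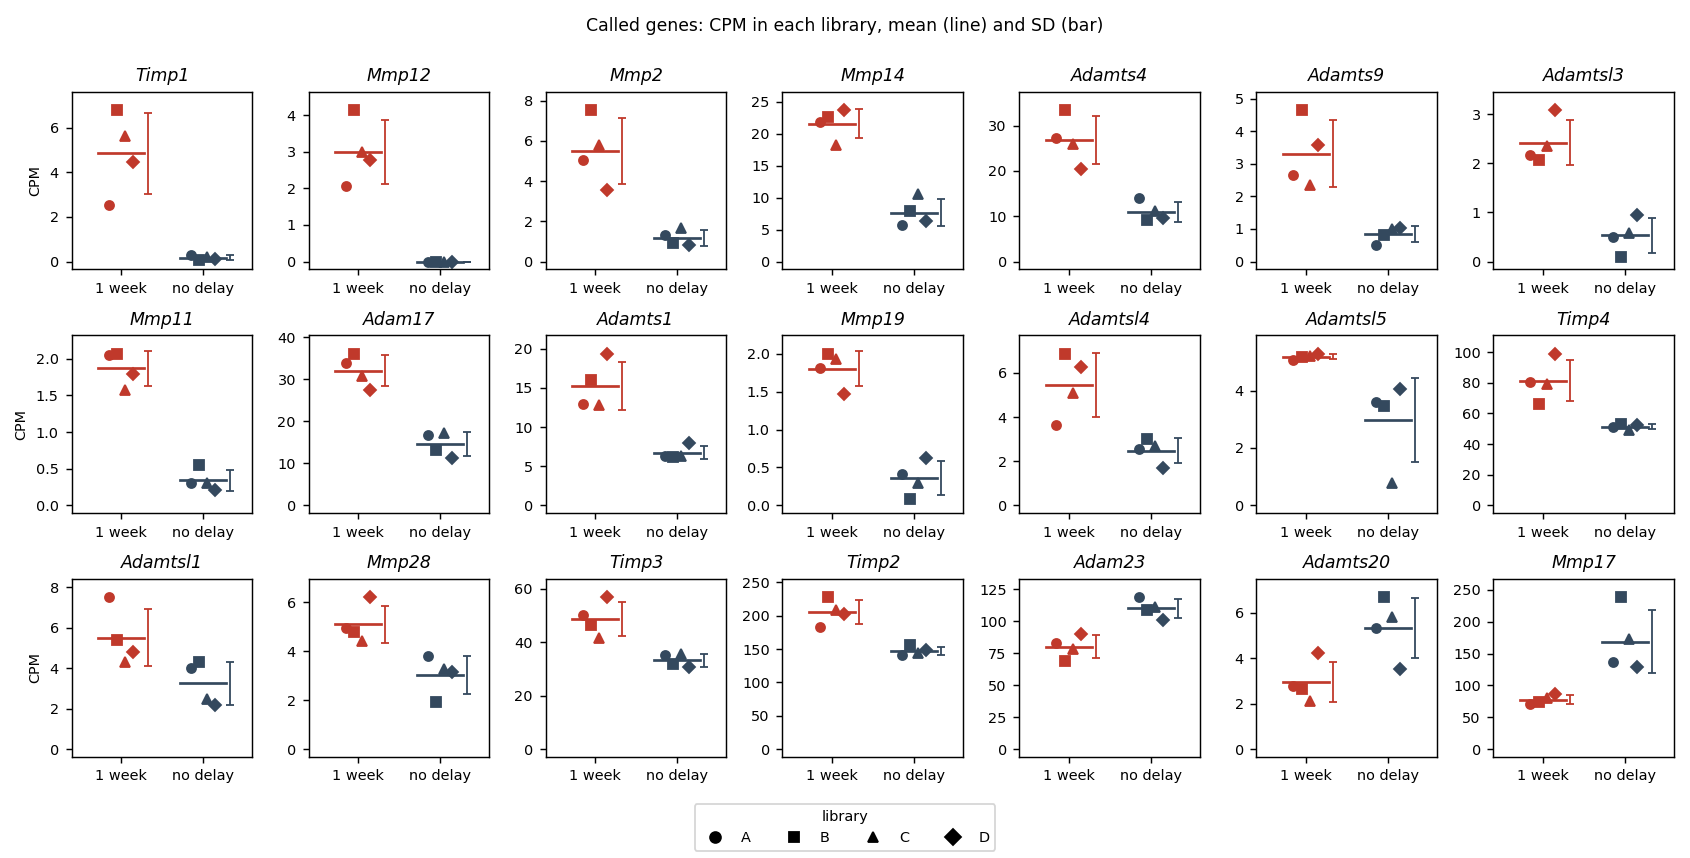
CPM in each library (points, one symbol per library) for the 21 called genes, 1 week on the left and no delay on the right of each panel, with the group mean (line) and SD (bar beside it). Axes start just below 0. Mmp12 has no read in the no-delay libraries, and Adamtsl1 and Adamts20 are the called genes whose groups overlap.

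Of Adam9, Adam10, Adam15, Adam17 and Adam19, which encode active sheddases, Adam17 was called higher, and Adam19 was called lower only under other scalings. ADAM17 releases TNF and many ligands of the EGF receptor. Adam17 had 33.8, 36.1, 30.7 and 27.4 CPM at 1 week, against 16.7, 13.3, 17.1 and 11.2 CPM with no delay, a ratio of means of 2.20 (1.10 ± 0.13 SE on the log2 scale, limma adjusted p = 4.9e-05), and the call held in every alternative. Adam10, the related sheddase that cuts Notch receptors and the amyloid precursor protein, stood higher in both groups and was not called. It had 129.7, 146, 162 and 171 CPM at 1 week, against 153, 152, 146 and 162 CPM with no delay, with overlapping groups (95% interval of the log2 fold change -0.20 to 0.16, limma adjusted p = 0.874). Whether the 2 genes differ in their change was not tested.

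Adam9 averaged 73.2 ± 2.11 CPM at 1 week and 78.1 ± 3.64 CPM with no delay (SD, n = 4 each; limma adjusted p = 0.264). Adam15 averaged 158 ± 8.47 CPM at 1 week and 144 ± 8.39 CPM with no delay (SD, n = 4 each; limma adjusted p = 0.133). Adam19 averaged 25.6 ± 0.631 CPM at 1 week and 28.6 ± 1.15 CPM with no delay (SD, n = 4 each). Its 1-week libraries were all below its no-delay libraries, with a limma adjusted p of 0.117 that became 0.0397 with TMM scaling. Adam12 and Adam33 had limma adjusted p of 0.114 and 0.746. Adam8, the ADAM of myeloid cells, had 2.05, 4.58, 0.93 and 3.26 CPM at 1 week, against 0, 0.09, 0.20 and 0.21 CPM with no delay. It missed the filter through its 1-week library C alone and is named here after its values were seen. Its 132 reads at 1 week and 5 with no delay amount to a ratio of 22.2 after scaling for depth (95% counting interval 9.27 to 69.4), and the fit without a filter called it (limma adjusted p = 7.8e-04).

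The ADAMs that serve as synaptic receptors for LGI proteins have no protease activity. Adam22, which holds LGI1 at excitatory synapses, had the highest mean of the 58 genes over all libraries. It had 170.1, 176, 182 and 183 CPM at 1 week, against 199.8, 190.2, 191 and 203 CPM with no delay, without overlap but at a limma adjusted p of 0.0760 (0.0191 with TMM scaling). Adam23 fell, with 83.2, 68.9, 78.7 and 90.1 CPM at 1 week, against 119, 109, 112 and 101 CPM with no delay (-0.46 ± 0.08 SE on the log2 scale, limma adjusted p = 0.00112). Adam11 averaged 62.0 ± 8.61 CPM at 1 week and 64.7 ± 4.65 CPM with no delay (SD, n = 4 each; limma adjusted p = 0.605). Of 7 markers of neurons, 2 were called lower and 5 were not called, and their sum was 8402 to 9224 CPM at 1 week and 9432 to 10288 CPM with no delay. The part of neurons in the fall of Adam23 was not tested.

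The remaining ADAMs are known from sperm or testis. Adam18 averaged 3.04 ± 0.321 CPM at 1 week and 3.39 ± 0.701 CPM with no delay (SD, n = 4 each; limma adjusted p = 0.617). Adam3 had 1.21, 0.81, 1.14 and 0.49 CPM at 1 week, against 0.61, 0.18, 0.20 and 0.10 CPM with no delay, and was not tested. Adam1a, Adam5 and Adam32 did not exceed 0.12 CPM in any library.

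Of the 6 ADAMTS proteoglycanases tested, 3 were called higher and 1 was called lower (23.4% and 13.4% of all genes tested). Adamts4, aggrecanase 1, which cuts brevican and other lecticans, had 27.3, 33.5, 25.9 and 20.4 CPM at 1 week, against 14.04, 9.14, 11.1 and 9.59 CPM with no delay (1.21 ± 0.15 SE on the log2 scale, limma adjusted p = 6.8e-05). Adamts1, a proteoglycanase that is also known to restrain vessel growth, had 12.9, 15.96, 12.9 and 19.4 CPM at 1 week, against 6.35, 6.22, 6.34 and 7.92 CPM with no delay (1.07 ± 0.14 SE on the log2 scale, limma adjusted p = 8.6e-05). Adamts9 had 2.66, 4.66, 2.36 and 3.58 CPM at 1 week, against 0.51, 0.82, 0.99 and 1.04 CPM with no delay (1.21 ± 0.19 SE on the log2 scale, limma adjusted p = 3.2e-04). All 3 separated the groups fully and were called in every alternative in which they were tested. Adamts20, an enzyme of the same branch as Adamts9, was the exception. It had 2.78, 2.66, 2.14 and 4.23 CPM at 1 week, against 5.33, 6.68, 5.84 and 3.54 CPM with no delay (-0.68 ± 0.19 SE on the log2 scale, limma adjusted p = 0.0151), the groups overlapped, and leaving out the no-delay library B ended the call (limma adjusted p = 0.0503).

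Adamts5, aggrecanase 2, was below the filter, with 0.72, 0.81, 0.71 and 1.06 CPM at 1 week, against 0.61, 0.46, 0.50 and 0.31 CPM with no delay. Adamts8 and Adamts15 were tested and not called. None of the procollagen-processing ADAMTS genes was called: Adamts3 ranged over 16.2 to 21.9 CPM at 1 week and 15.7 to 22.7 CPM with no delay (limma adjusted p = 0.893), Adamts2 had an adjusted p of 0.166, and Adamts14 stayed below 1 CPM. The other 6 tested ADAMTS genes (Adamts6, Adamts10, Adamts13, Adamts16, Adamts17 and Adamts18) were not called either, with Adamts16 and Adamts10 nearest to the threshold at limma adjusted p of 0.0536 and 0.0553. Adamts13, which trims von Willebrand factor, averaged 1.58 ± 0.507 CPM at 1 week and 2.29 ± 0.638 CPM with no delay (SD, n = 4 each). Adamts7 had 17 reads at 1 week and 1 with no delay, a depth-scaled ratio of 14.3 (95% counting interval 2.24 to 597).

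The ADAMTS-like genes, whose products bind matrix microfibrils but cut nothing, were called higher in 4 of 5 cases, against 23.4% of all genes tested. Adamtsl3 was under 1 CPM in all no-delay libraries and was tested only through its 1-week level, so nothing is read from this count. Adamtsl3 averaged 2.42 ± 0.461 CPM at 1 week and 0.532 ± 0.349 CPM with no delay (SD, n = 4 each; 1.18 ± 0.19 SE on the log2 scale, limma adjusted p = 4.5e-04). Adamtsl4 averaged 5.46 ± 1.44 CPM at 1 week and 2.48 ± 0.575 CPM with no delay (SD, n = 4 each; 0.88 ± 0.19 SE on the log2 scale, limma adjusted p = 0.00301). Both separated the groups fully, and quantile normalization ended the call of Adamtsl4 (limma adjusted p = 0.0563). Adamtsl1 averaged 5.49 ± 1.41 CPM at 1 week and 3.24 ± 1.06 CPM with no delay (SD, n = 4 each; 0.63 ± 0.20 SE on the log2 scale, limma adjusted p = 0.0271), with overlapping groups. Its call ended without the 1-week libraries A (0.0810) or B (0.0569), without the no-delay libraries C (0.0754) or D (0.0762), and with quantile normalization (0.355; limma adjusted p throughout). Adamtsl5 had 5.07, 5.17, 5.21 and 5.29 CPM at 1 week, against 3.59, 3.47, 0.79 and 4.06 CPM with no delay. The no-delay library C was far below the others, and the call (0.74 ± 0.27 SE on the log2 scale, limma adjusted p = 0.0474) held in only 4 of 17 alternatives, where the adjusted p ranged from 0.0274 to 0.339. Without library C of the no-delay group the log2 fold change was 0.40 (limma adjusted p = 0.0331). Adamtsl2, which binds a TGF-beta binding protein of the matrix, averaged 6.59 ± 0.156 CPM at 1 week and 6.84 ± 2.36 CPM with no delay (SD, n = 4 each; limma adjusted p = 0.998).

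The 1-week libraries were not equal in these genes. Of the 18 called higher, 10 had their highest 1-week value in library B (among them Timp1, Mmp12, Mmp2, Adam17 and Adamts4) and 7 in library D (among them Mmp14, Adamts1, Timp3 and Timp4), 1 in A and 0 in C. Markers of other cells were uneven too. The monocyte and macrophage markers (4 of 7 tested, all 4 higher) summed to 158, 328, 129 and 178 CPM at 1 week, against 8.81 to 12.7 CPM with no delay. The fibroblast and meningeal markers (6 of 7 higher, Lum among them in only 4 of 16 alternatives) summed to 66.8, 185, 55.4 and 105 CPM at 1 week, against 27.5 to 40.5 CPM with no delay. Library B was highest and D second in both sums. Most of the macrophage sum was Lyz2 (125, 280, 98.4 and 142 CPM at 1 week), while library D was lowest in Fcgr1 and highest in Mrc1. The order was not particular to these lists, since the pericyte and smooth muscle sums shared it (187, 233, 185 and 216 CPM at 1 week). Library B was also highest in the microglial and endothelial sums, but the astrocyte sum was highest in C and the oligodendrocyte sum in A. The macrophage genes tested were Lyz2, Ms4a7, Mrc1 and Fcgr1, and Ccr2, Cd163 and Ly6c2 were too low to test. Ms4a7 was tested only through its 1-week level. All 8 microglial markers (1449 to 2052 CPM at 1 week and 450.1 to 460.0 CPM with no delay) and all 6 astrocyte markers (3431 to 4052 CPM at 1 week and 1532 to 1774 CPM with no delay) were also higher. Of the other lists, 5 of 6 endothelial, 4 of 6 pericyte and smooth muscle and 4 of 6 oligodendrocyte markers were higher, and none of 5 red cell markers was called, with sums of 348 to 5361 CPM at 1 week and 659 to 1562 CPM with no delay. The part of these cells in the changes of the proteinase and inhibitor genes was not tested. Without the 1-week library B, 16 of these genes were called higher and 3 lower.

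Genes that act with these enzymes were taken from lists made with earlier results of these data known, and they describe the surroundings of the families. Of 58 listed genes 52 were in the table and 49 were tested, of which 31 were higher, 6 were lower and 12 were not called, with a median log2 fold change of 0.42. Over all genes tested, 23.4% were higher and 13.4% lower, with a median of 0.06, and the counts by list below stand against these shares. Of the genes of proenzyme and plasminogen activation, 5 of 8 tested were higher and none was lower. Plau, which encodes the activator urokinase, averaged 10.6 ± 2.61 CPM at 1 week and 3.46 ± 0.491 CPM with no delay (SD, n = 4 each; 1.35 ± 0.16 SE on the log2 scale, limma adjusted p = 3.2e-05), and its receptor gene Plaur and the inhibitor gene Serpine2 had log2 fold changes of 1.08 and 1.04 (limma adjusted p = 5.2e-04 and 3.4e-07). Furin, the convertase that removes the prodomain of membrane-type MMPs and ADAMs, averaged 8.87 ± 1.59 CPM at 1 week and 9.45 ± 0.448 CPM with no delay (SD, n = 4 each; limma adjusted p = 0.582).

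Of the other inhibitors, binders and clearance receptors, 5 of 7 were higher and none was lower. A2m, a broad trap of proteinases, averaged 35.8 ± 7.68 CPM at 1 week and 1.08 ± 0.568 CPM with no delay (SD, n = 4 each; 4.16 ± 0.21 SE on the log2 scale, limma adjusted p = 5.9e-08). Reck, a membrane-anchored inhibitor of MMPs, averaged 14.5 ± 2.69 CPM at 1 week and 16.1 ± 0.892 CPM with no delay (SD, n = 4 each; limma adjusted p = 0.359). Thbs2, a matrix protein that helps to clear MMP2, had a log2 fold change of 0.94 (limma adjusted p = 6.0e-04). Lcn2 was called (1.88 ± 0.57 SE on the log2 scale, limma adjusted p = 0.0210) although its groups overlapped, and edgeR did not call it (adjusted p = 0.0774). Its call was also lost with DESeq2 (adjusted p = 0.245) and without the 1-week library A (limma adjusted p = 0.0606).

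Partners of the sheddases moved in both directions, with 3 of 8 higher and 2 lower. Rhbdf2 and Frmd8, which bring ADAM17 to the cell surface and hold it there, were called higher, and Rhbdf1, the relative of Rhbdf2, was not (limma adjusted p = 0.111). Rhbdf2 was under 1 CPM in all no-delay libraries and entered the test only through its 1-week level. Rhbdf2 averaged 3.38 ± 1.18 CPM at 1 week and 0.765 ± 0.145 CPM with no delay, and Frmd8 averaged 24.1 ± 3.67 CPM at 1 week and 10.9 ± 1.48 CPM with no delay (SD, n = 4 each; limma adjusted p = 1.8e-04 and 3.0e-05). Tspan5, a tetraspanin that escorts ADAM10, averaged 206 ± 45.4 CPM at 1 week and 351 ± 12.4 CPM with no delay (SD, n = 4 each; -0.79 ± 0.12 SE on the log2 scale, limma adjusted p = 2.9e-04).

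Genes of shed substrates were higher in 12 of 16 cases and lower in 3 (App, Cx3cl1 and L1cam). The calls of L1cam and of Hbegf, one of the 12, were marginal, with overlapping groups, and held in 10 and 9 of 17 alternatives. App, the amyloid precursor, averaged 815 ± 66.6 CPM at 1 week and 1209 ± 102 CPM with no delay (SD, n = 4 each; limma adjusted p = 2.5e-04). The largest log2 fold change of the list was that of Trem2, a receptor of microglia, which averaged 78.4 ± 23.7 CPM at 1 week and 8.75 ± 1.56 CPM with no delay (SD, n = 4 each; limma adjusted p = 1.4e-07). Cd44, the receptor of hyaluronan, and the TNF receptor gene Tnfrsf1a had log2 fold changes of 2.39 and 2.17 (limma adjusted p = 2.1e-06 and 7.2e-08). Among the lecticans, which ADAMTS4 and its relatives cut, and the other genes of their list, 4 of 6 tested were higher and none was lower. Those higher were Bcan, Ncan, Vcan and Hapln2. Acan and Hapln4 were not called (limma adjusted p = 0.142 and 0.837), and Tnr was too low to test. Hapln2 averaged 16.6 ± 1.04 CPM at 1 week and 6.88 ± 3.68 CPM with no delay (SD, n = 4 each), and Vcan and Ncan had log2 fold changes of 0.65 and 0.39 (limma adjusted p = 0.00154, 0.00542 and 8.4e-04). Of the LGI genes, Lgi1 was lower (-0.26), Lgi3 and Lgi4 were higher (0.42 and 0.63), and Lgi2 was not called (limma adjusted p = 0.00465, 1.2e-04, 4.6e-04 and 0.417).

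**Figure D4:**
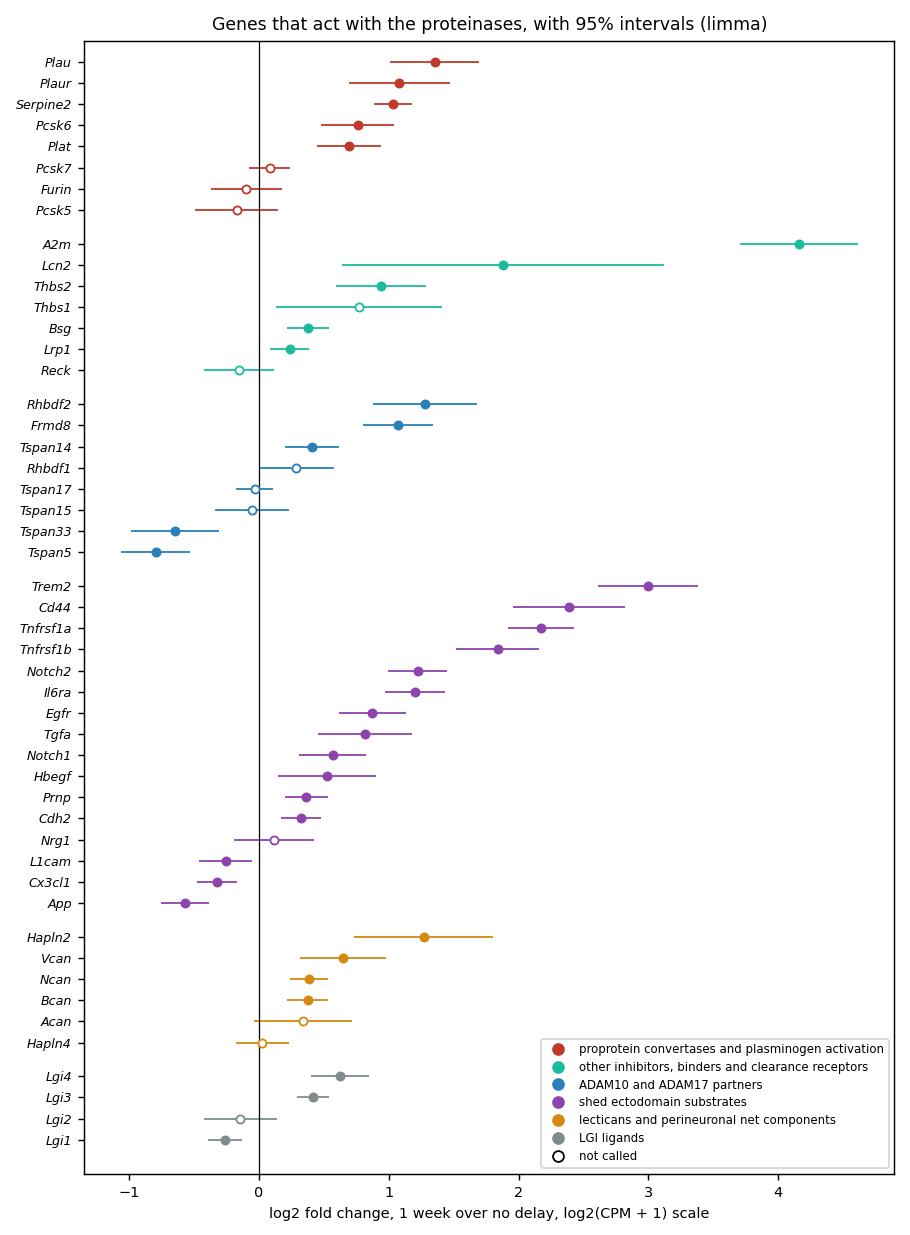
Log2 fold change of 1 week over no delay on the log2(CPM + 1) scale for the 49 tested genes that act with the proteinases, with limma 95% intervals, in 6 lists from activators at the top to LGI ligands at the bottom. Filled points were called; A2m at 4.16 lies farthest to the right and Tspan5 at -0.79 farthest to the left.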

How the data were processed

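Per the labels' protocols, CAGE libraries from total RNA were read on a NextSeq 500 (75 nt, single-end). BWA 0.5.9 and the build mm9 are named in the submitters' processing notes. How tags were assigned to genes (and if by strand) is not given in the sources used here. Values deposited by the authors are CPM (tag counts scaled by each library's total) for 17644 symbols in 8 columns. Column names give the group and a tag but no replicate number. The second tag is GCT in all 1-week and CAC in all no-delay columns, so anything shared by that tag and the group cannot be told apart. Low CPM values are whole multiples of 1 read, and at least 99.99% of values came out whole within 0.1 reads in every library.

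Genes with 1 CPM or more in at least 4 libraries (14718) were tested by limma 3.58.1 in R 4.3.3 (log2(CPM + 1), trended variance, 2-sided) with Benjamini-Hochberg adjustment over all of them. The pseudocount makes fold changes of genes with few reads too small. The procedure was tested on simulated data. Changes were set there only in the more abundant genes, so that test does not cover changes of the rarer genes called here. The members, related genes and marker lists were chosen with earlier results of these data known. Named were all called members with a mean of 1 CPM or more, all Timp genes, the 8 most abundant members not called, and up to 3 called genes per related list. Alternatives were other pseudocounts, filters and scalings, library weights, edgeR 4.0.16 and DESeq2 1.42.0 on recovered reads, and omission of each library. The TATAAA search was added after seeing the data, as were the other genes named for their values. No coordinates are given for genes, since the reference (GRCm38) is another build than mm9.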

Additional observations from a re-analysis of the deposited data

Results flagged for a closer look

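Adamts1 in the no-delay library tgacca, at 7.92 CPM, stood apart from the other no-delay libraries, which lay between 6.22 and 6.35 CPM. It was the only one of 58 groups of 4 libraries (29 genes in both groups) in which the highest or lowest value lay that far from the rest, and chance flags about 1 in 20 such groups.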

How the results depend on the processing

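Each of the 21 called members kept its direction in every alternative (17) in which it was tested. Adam10, Mmp16 and Adamts3, among the named members not called, changed sign in some. So did Adam33, Adamts6, Adamts8, Adamts15, Adamts17, Adamtsl2 and Mmp15, which were tested and not called. The side of the threshold was unchanged in 454 of 482 refits of single genes and for 22 of the 29 named members throughout; it was lost in 21 (Adamtsl5, Adamtsl1, Adamtsl4, Adamts20 and Mmp28) and gained in 7 (Adam19 and Adam22). The count called higher, 18, became 7 with a filter of 5 CPM, which tests only 25 of the genes, and lay between 14 and 22 in the other alternatives. The count called lower, 3, became 6 with TMM scaling, edgeR or DESeq2 and 7 with quantile normalization, and lay between 2 and 4 in the others; the cause was not tested. Over all genes 1971 were lower, and 3151 with quantile normalization. Without a filter all 58 genes were tested and 22 were higher and 3 lower (20.5% and 10.7% of all 17644 genes), with Adam8, Mmp23, Adamts7, Adam3 and Adamts5 added and Adamtsl5 lost. The 4 genes with an AP-1 motif were also found with the 250 bases before the start alone. The columns carry no replicate number. With the shared index tag as a replicate block (added after seeing the data), 18 members were higher and 3 lower, and no call of a member changed. Deviations of the libraries that share a tag correlated at -0.0187, -0.0340, 0.0365 and 0.181 (A to D, across genes). Those of libraries with different tags correlated at -0.163 to 0.0912, so the value of tag D was the largest. These values do not settle whether a tag pairs libraries, and no pairing was used in the main fit. Genes of a few reads, such as Mmp3, Mmp13 and Mmp27, are limited by depth: a difference in them was not detectable here.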
